A study of Mus musculus with 109 samples.

Results

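Adgre4, Arl11, Cmklr1, Abcg3, Tifab, Nlrp1c-ps and Adap2 are 7 genes of myeloid cells that stood near the top of the genes raised in mouse retina 2 days after an injection of TNF alone, and they are followed here through the other injections and days of the same series. They were taken by symbol from a table of 37315 genes, because their difference between TNF and PBS retinas of day 2 was among the clearest of that comparison, and all 7 were found by their Ensembl identifiers. They were thus chosen by their measured values in TNF and PBS retinas at day 2, which are given as a description. The series measured polyadenylated RNA of whole retinas by RNA sequencing in C57BL/6J mice, 2 to 4 months old by the series text and with a wider age range in the study's methods, after a cytokine or PBS, the salt solution that carried it, had been placed in the vitreous of an eye. In 45 of the 64 mice both eyes were sequenced, usually the cytokine eye and the PBS eye beside it.

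There were 109 retinas. In a first batch, as the labels call it, of 86 wild type (WT) retinas, day 2 held 31 PBS, 8 TNF, 9 IL1A and 10 IL1A+TNF retinas. Day 14 held 7 PBS retinas, from 6 mice, and 6 TNF retinas, and day 35 held 6 PBS and 9 TNF retinas. A second batch of 23 retinas, all of day 2, held 5 PBS and 6 IL1A+TNF retinas of WT mice, and 6 PBS and 6 IL1A+TNF retinas of mice without Sarm1 (Sarm1-/-), a gene for an enzyme of axon degeneration. No TNF or IL1A retina was in the second batch, and no uninjected retina was analysed here, so every control had itself been injected with PBS. Both sexes were in each group. Because whole retinas were sequenced, more cells of a type and more RNA per cell cannot be told apart.

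TNF and IL1A are cytokines made early in inflammation, largely by myeloid cells. The retina has its own myeloid cells, the microglia, with macrophages along its vessels and borders, while monocytes and neutrophils enter from the blood when the tissue is inflamed. The 7 genes are known for different tasks in such cells. At the surface, Adgre4 is an adhesion G protein-coupled receptor of macrophages and dendritic cells, and Cmklr1 is the receptor for chemerin, a protein that draws macrophages and dendritic cells into tissue. Abcg3 belongs to a subfamily of membrane transporters that use ATP. Inside the cell, Arl11 is a small GTPase of the ARF-like family and Adap2 is a GTPase-activating protein for ARF GTPases that binds membrane phosphoinositides. Tifab is a relative of the adaptor Tifa and restrains signalling through TRAF6 to NF-kB. Nlrp1c-ps is a transcribed pseudogene beside Nlrp1a and Nlrp1b, sensors of the inflammasome, the complex that activates caspase-1.

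In the mm10 (GRCm38) build, the genes lay apart from each other. Adgre4 was at chr17:55749984-55853662 on the plus strand, Arl11 at chr14:61309753-61311936 on the plus strand and Tifab at chr13:56173704-56178885 on the minus strand. Cmklr1 was at chr5:113612354-113650426 and Abcg3 at chr5:104935057-104982718, both on the minus strand. Nlrp1c-ps was at chr11:71242430-71285232 on the minus strand and Adap2 at chr11:80154105-80178958 on the plus strand, which put them 7.19 Mb and 1.66 Mb from Sarm1 on the same chromosome. How many reads Nlrp1c-ps shared with its near copies Nlrp1a and Nlrp1b could not be read from gene counts. The antisense gene Adap2os overlapped Adap2, with a median of 13 reads per retina. Whether reads were counted by strand is not given in the sources used here.

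PU.1, made from Spi1, is the transcription factor on which the myeloid lineage depends. RefSeq start-site windows, from 250 bases before to 50 after, were held for 6 members in build GRCm38.p6 and none for Nlrp1c-ps. The window of Cmklr1 was at a start site inside the gene span given above. Its 250 bases before the start site were chr5:113643604-113643853, where the span reached 113650426. The letters GAGGAAG, a PU.1 motif, were found on either strand in 3 of these 6 windows, against 13.6% of 32851 mouse windows of the same length. In each of the 3, the match fell just after the start site, and the 30 bases around it are shown for that reason, read 5′ to 3′ along the gene with the match in capitals. They were chr17:55750004-55750033 (plus strand), chr14:61309773-61309802 (plus strand) and chr5:104982692-104982721 (minus strand).
Adgre4: gaacaagataagcagtggtgcaCTTCCTCc
Arl11: tgccctaaccactcgagaGAGGAAGcaaaa
Abcg3: ccactgcctgctaCTTCCTCtgctctcttc
Counted from the start site as base 1, the matches began at base 43, base 39 and base 10, and those of Adgre4 and Abcg3 lay on the other strand, so that they read CTTCCTC. The AP-1 letters TGACTCA, present in 5.2% of all windows, an NF-kB motif (GGG, any 2 bases, then TTTCC), in 1.63%, and an interferon response motif (GAAA, any 2 bases, then GAAA), in 3.44%, were in none of the 6. These are letters in a short window, and binding was not measured.

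Read totals ran from 30014757 to 79064488 per retina with a median of 39374202. Levels are given as CPM, read counts scaled to library size, with library sizes adjusted by the trimmed mean of M values over all 109 retinas. The members were low. Divided by the length of their exons, their median levels in PBS retinas of day 2 were 1.25 CPM per kb for Adap2, 0.624 for Cmklr1, 0.600 for Tifab and 0.389 for Arl11. The other 3 were lower, at 0.0589 CPM per kb for Nlrp1c-ps, 0.0571 for Abcg3 and 0.0524 for Adgre4. A gene was tested at day 2 where at least 8 retinas reached 0.254 CPM. Among the 31 PBS retinas, 6 reached it for Adgre4, 6 for Abcg3 and 9 for Nlrp1c-ps, so Adgre4 and Abcg3 passed only with the help of cytokine retinas. At days 14 and 35 those 3 genes fell under the filter, and 4 members were tested.

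Both eyes of 1 mouse went against their labels for these genes, and they are described before the comparisons. Mouse 60584 was recorded with TNF in one eye and PBS in the other. Its TNF retina had 0.219 CPM of Adgre4 and its PBS retina 0.584 CPM, and the same order held for Arl11 (0.627 and 1.38 CPM), Cmklr1 (1.69 and 2.38 CPM), Abcg3 (0.0627 and 0.724 CPM), Tifab (1.41 and 3.74 CPM) and Adap2 (1.54 and 3.69 CPM). Nlrp1c-ps alone was level, at 0.219 and 0.210 CPM. Summed over 7 monocyte markers, among them Ly6c2 and Ccr2, the library labelled TNF had 0.251 CPM, the lowest of the 8 TNF retinas, and the library labelled PBS had 21.5 CPM, the highest of the 31 PBS retinas. The labels were kept as given, and its PBS eye was the highest PBS retina of day 2 for Abcg3, Tifab and Adap2, so counts of retinas above the PBS range rest on it in part and are given without it where they change. In the second batch, the PBS eye of the Sarm1-/- mouse 61564 also stood apart, with 47.4 CPM over the monocyte markers, where the median of its group was 5.31 CPM.

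After TNF alone at day 2, the difference that chose them, all 7 genes were higher in the TNF group. Adgre4 had 0.0555, 0.183 and 0.646 CPM as the lowest, median and highest of 31 PBS retinas and 0.202, 0.907 and 2.03 CPM in 8 TNF retinas. Cmklr1 had 0.804, 2.13 and 3.25 CPM with PBS and 1.69, 4.59 and 5.70 CPM with TNF. The groups overlapped for both receptors, with 5 of 8 TNF retinas above the highest PBS retina in each case. Arl11 went from 0.166, 0.850 and 1.48 CPM to 0.627, 2.07 and 2.46 CPM, and Adap2 from 0.868, 2.24 and 3.69 CPM to 1.54, 4.07 and 5.25 CPM. For each of these ARF genes, 6 of 8 TNF retinas were above every PBS retina.

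Tifab, the restraint on TRAF6, had 1.38, 2.10 and 3.74 CPM with PBS and 1.41, 4.48 and 5.86 CPM with TNF. Abcg3 had 0, 0.203 and 0.724 CPM with PBS and 0.0627, 0.989 and 1.34 CPM with TNF. Nlrp1c-ps had 0.0234, 0.204 and 0.605 CPM with PBS and 0.219, 0.706 and 0.954 CPM with TNF. The lowest TNF retina lay inside the PBS range for every member, and for all but Adgre4 it was that of mouse 60584. In none of the 7 genes did all TNF retinas stand above all PBS retinas. With both eyes of mouse 60584 left out, a setting chosen after seeing the data, all 7 remaining TNF retinas were above all 30 PBS retinas for Adap2. The other counts stayed at 5 or 6, now of 7. This is the contrast that chose the genes, and the share of all genes with such counts was not taken. Nothing is read from these counts.

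**Figure D1:**
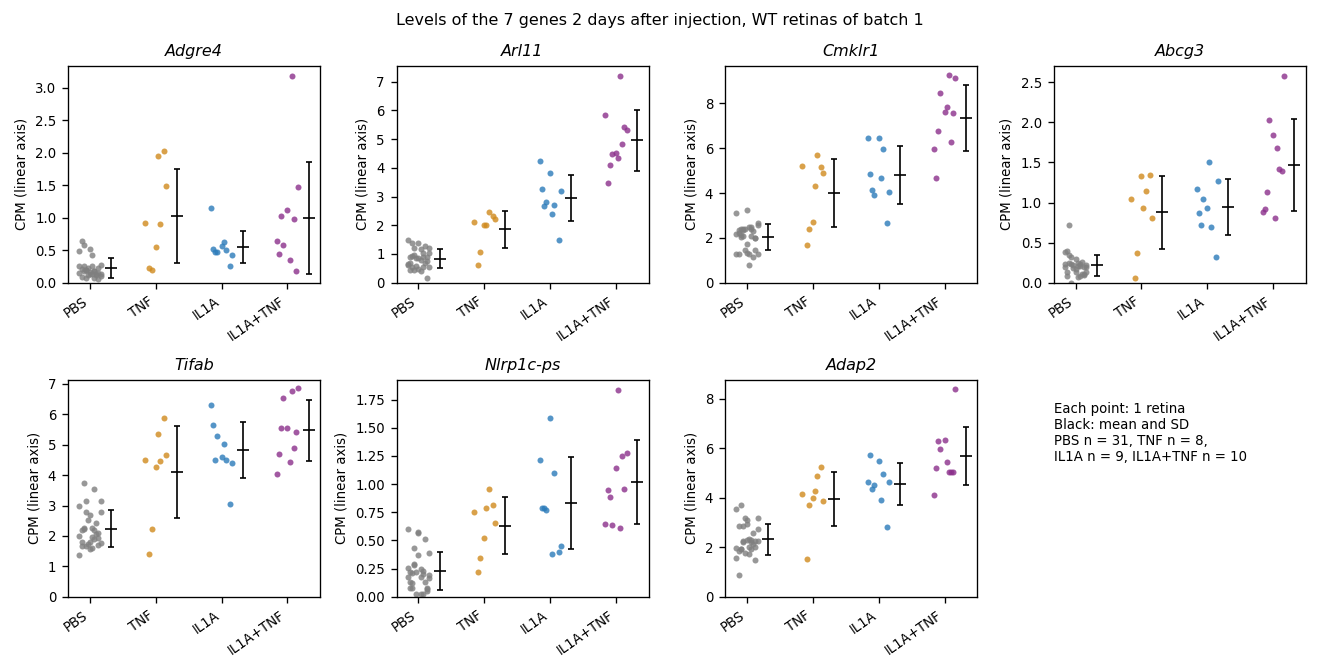
Level of each member in CPM (linear axis) in every WT retina of day 2 of the first batch, by injection, with 1 point per retina and the mean and SD in black. The IL1A+TNF points of Arl11, Cmklr1, Abcg3, Tifab, Nlrp1c-ps and Adap2 lie above every PBS point, while those of Adgre4 reach down into the PBS range.

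As log2 fold changes of TNF over PBS, Adgre4 had 2.05, Abcg3 1.86 and Nlrp1c-ps 1.72, the genes of lowest level. Arl11 had 1.18, Cmklr1 0.95, Tifab 0.82 and Adap2 0.77. Of 19548 genes tested, 0.614% were called higher, the 7 among them. Nothing is read from this, since the rule used the same contrast and so fixed its outcome. The median over the members was 1.18, and over all genes it was −0.00. Leaving out 1 TNF mouse at a time, each difference was largest without mouse 60584, at 2.38 for Adgre4, 2.36 for Abcg3 and 1.41 for Arl11.

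Within mice, the TNF eye was higher than its own PBS eye in 7 of 8 mice for Adgre4, Arl11, Cmklr1, Abcg3, Tifab and Adap2, the exception each time being mouse 60584. For Nlrp1c-ps it was higher in 8 of 8, although the eyes of mouse 60584 were nearly level (0.219 CPM with TNF and 0.210 CPM with PBS). The size of the step differed between mice. Mouse 60585 had the widest for Adgre4, from 0.0555 CPM in its PBS eye to 2.03 CPM in its TNF eye. Mouse 59897 stood near the low end, where Cmklr1 was 2.38 CPM with PBS and 2.39 CPM with TNF, although its Arl11 went from 0.439 to 1.07 CPM and its Adap2 from 2.23 to 3.69 CPM.

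**Figure D2:**
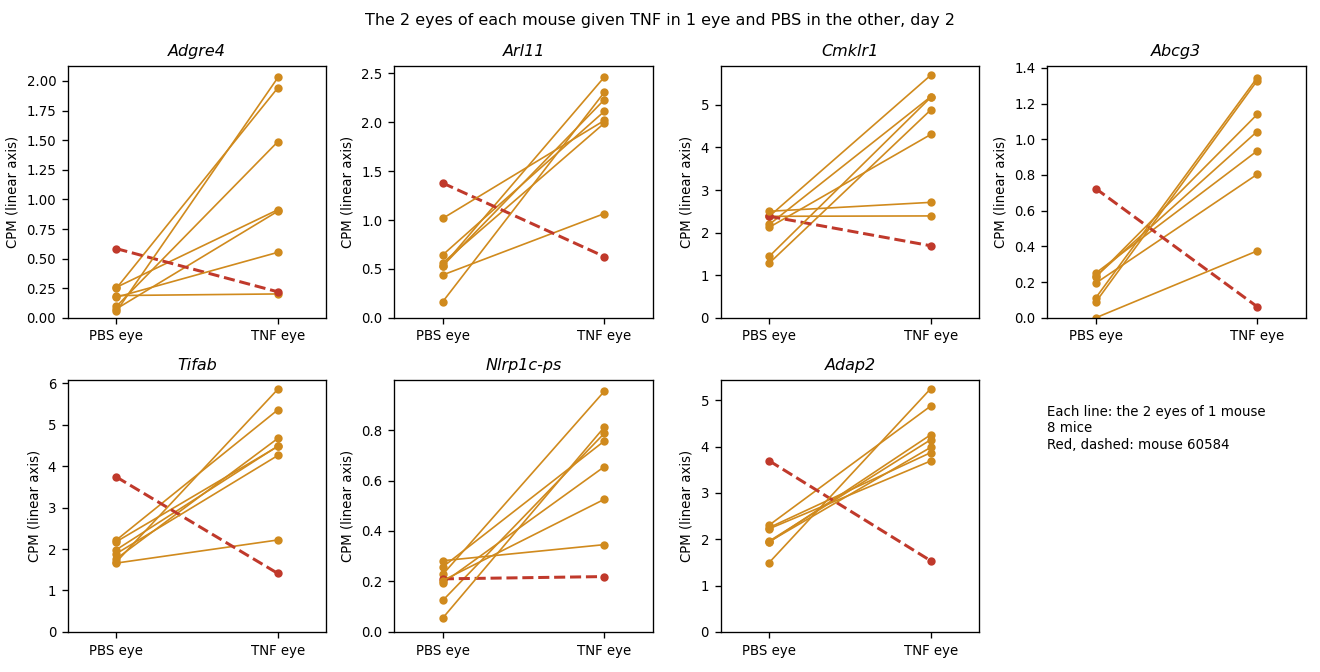
Level of each member in CPM (linear axis) in the PBS and TNF eyes of the 8 mice that had both at day 2, with a line joining the eyes of a mouse and mouse 60584 dashed in red. Lines go up in 7 of 8 mice for 6 genes and in 8 of 8 for Nlrp1c-ps. The line of mouse 60584 is nearly level for Nlrp1c-ps and goes down for the other 6.

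IL1A alone raised all 7 genes at day 2. These retinas were set against the same PBS retinas that the rule had used, so this comparison and the next share controls with it and with each other. Arl11 had 1.50, 2.81 and 4.23 CPM as lowest, median and highest of 9 IL1A retinas, and was the member whose IL1A retinas all lay above all 31 PBS retinas, as did 0.102% of all genes. Cmklr1 had 2.67, 4.69 and 6.47 CPM, Tifab 3.05, 4.60 and 6.32 CPM, and Adap2 2.82, 4.64 and 5.71 CPM. For each of these 3, 8 of 9 IL1A retinas exceeded the highest PBS retina. Nlrp1c-ps had 0.381, 0.791 and 1.59 CPM and Abcg3 0.325, 0.936 and 1.50 CPM, and 6 of 9 retinas did so in each. Without mouse 60584 the count of Abcg3 was 8 of 9, against a highest PBS retina of 0.397 CPM, and those of the other members were the same. Adgre4, at 0.250, 0.511 and 1.14 CPM, overlapped the most, with 1 of 9 retinas above the PBS range. Its IL1A median was also below its TNF median of 0.907 CPM, a difference that was not tested.

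All 7 members passed the test for IL1A against PBS, where 12% of 19548 genes were called higher. Adgre4 and Abcg3 had entered the test only with the help of cytokine retinas, so their calls carry less weight. Log2 fold changes were 2.17 (SE 0.30) for Abcg3, 2.13 (SE 0.28) for Nlrp1c-ps, 1.88 (SE 0.18) for Arl11 and 1.45 (SE 0.36) for Adgre4. They were 1.27 (SE 0.15) for Cmklr1, 1.12 (SE 0.14) for Tifab and 1.01 (SE 0.13) for Adap2. Adjusted p-values of limma ran from 1.2e-12 for Arl11 to 0.0016 for Adgre4. In the 7 mice with both eyes, the IL1A eye was higher in 7 of 7 for 6 genes and in 6 of 7 for Adgre4. The median difference over the members was 1.45, against −0.01 over all genes.

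IL1A+TNF gave the highest medians of the first batch for every member but Adgre4. Arl11 had 3.48, 4.69 and 7.20 CPM in 10 retinas, where the highest PBS retina had 1.48 CPM, and Cmklr1 had 4.68, 7.59 and 9.26 CPM. Adap2 had 4.13, 5.33 and 8.39 CPM, Tifab 4.03, 5.48 and 6.85 CPM, Abcg3 0.807, 1.41 and 2.58 CPM, and Nlrp1c-ps 0.610, 0.953 and 1.83 CPM. All 10 retinas of each of these 6 genes lay above all 31 PBS retinas, which held for 2.26% of all genes. Adgre4 was spread most, at 0.174, 0.812 and 3.18 CPM, with 5 of 10 retinas above the PBS range and 1 of 10 below the PBS median.

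Every member rose with IL1A+TNF in the test against PBS, in which 24.9% of 19548 genes were called higher. Adgre4 and Abcg3 had again entered the test only with the help of cytokine retinas. The log2 fold changes were 2.81 (SE 0.28, adjusted p = 6.12e-13) for Abcg3, 2.62 (SE 0.16, adjusted p = 5.73e-20) for Arl11, 2.39 (SE 0.26, adjusted p = 2.4e-11) for Nlrp1c-ps and 1.89 (SE 0.32, adjusted p = 1.32e-06) for Adgre4. Cmklr1 had 1.86 (SE 0.14, adjusted p = 2.47e-17), Adap2 1.33 (SE 0.12, adjusted p = 1.03e-13) and Tifab 1.30 (SE 0.13, adjusted p = 6.95e-13). By p, Arl11 ranked 4 of all genes tested and Adgre4 ranked 3012. The IL1A+TNF eye was higher than its PBS eye in 8 of 8 mice for all 7 genes. The median over the members was 1.89, beside −0.02 over all genes. With both eyes of mouse 60584 left out, a setting chosen after seeing the data, all 7 members were still called after IL1A and after IL1A+TNF. The shares of all genes called in that setting were not taken.

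Retinas given IL1A+TNF were then compared with those given IL1A, a contrast that holds no retina used by the rule. Arl11 and Cmklr1 were higher with both cytokines, by log2 0.73 (SE 0.18, adjusted p = 0.0039) and 0.59 (SE 0.16, adjusted p = 0.0134), where 5.39% of 19548 genes were called higher. Neither gene separated the groups, since the highest IL1A retina of each was above the lowest IL1A+TNF retina. Abcg3 had a difference of 0.64 (p = 0.0365, adjusted p = 0.169) and Adap2 one of 0.32 (p = 0.0369, adjusted p = 0.17), neither past the threshold. Adgre4 had 0.44 with an interval from −0.32 to 1.20, Tifab 0.18 from −0.13 to 0.49 and Nlrp1c-ps 0.26 from −0.32 to 0.84, which leave room for a change in either direction. The median over the 7 was 0.44, against −0.01 over all genes. The calls of Arl11 and Cmklr1 were lost when each mouse was given its own term as a block, which leaves only PBS eyes to link the groups (0.67, adjusted p = 0.571, and 0.57, adjusted p = 0.52). In that fit 1 of 19476 genes was called, so the loss was not particular to these genes.

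At day 14 the members were low in TNF and PBS retinas alike. Cmklr1 had 0.398, 0.987 and 1.46 CPM in 7 PBS retinas and 0.524, 0.911 and 1.98 CPM in 6 TNF retinas. Tifab had 1.05, 1.38 and 1.65 CPM beside 0.783, 1.43 and 1.68 CPM, and Adap2 0.896, 1.53 and 2.00 CPM beside 1.12, 1.72 and 2.19 CPM. Arl11 had 0.337, 0.516 and 0.855 CPM with PBS and 0.287, 0.539 and 0.662 CPM with TNF. The ranges of each gene lay over one another. Log2 differences were −0.14 (95% interval −0.70 to 0.42) for Arl11, 0.02 (−0.55 to 0.59) for Cmklr1, −0.05 (−0.43 to 0.34) for Tifab and 0.04 (−0.28 to 0.36) for Adap2. None of the 4 members tested was called, as was 0% of 18023 genes by limma, edgeR and DESeq2 alike. At an unadjusted p under 0.05 there were 838 genes by limma, 476 by edgeR and 472 by DESeq2, and 0 of the 4 members.

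The 3 genes under the filter were near the limit of counting at day 14. Adgre4 had medians of 0.133 CPM with PBS and 0.177 CPM with TNF, Abcg3 of 0.133 and 0.0823 CPM and Nlrp1c-ps of 0.0878 and 0.254 CPM. With no filter on low counts, the differences were 0.14 for Adgre4, −0.48 for Abcg3 and 1.45 for Nlrp1c-ps, the last with p = 0.0218 and an adjusted p = 0.941.

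At day 35 none of the 4 members tested was called either. Arl11 had 0.168, 0.248 and 0.550 CPM in 6 PBS retinas and 0.334, 0.457 and 0.525 CPM in 9 TNF retinas, a log2 difference of 0.65 (95% interval 0.11 to 1.20). Its p was 0.0217 and its adjusted p = 0.889, so it was not called. Cmklr1 had 0.507, 0.657 and 0.988 CPM with PBS and 0.712, 0.942 and 1.17 CPM with TNF, a difference of 0.38 (p = 0.0522, adjusted p = 0.889). Adap2 had 0.753, 1.22 and 1.60 CPM with PBS and 1.17, 1.46 and 2.14 CPM with TNF, a difference of 0.32 (p = 0.0568, adjusted p = 0.889), and its TNF eye was the higher in 6 of 6 mice. For Cmklr1 it was so in 5 of 6 mice, for Arl11 in 4 of 6 and for Tifab in 3 of 6. Tifab had 0.901, 0.949 and 1.04 CPM beside 0.716, 0.857 and 1.22 CPM, a difference of −0.05. Of 17821 genes, 0% were called by limma, edgeR and DESeq2, while 871, 747 and 746 had an unadjusted p under 0.05. Adgre4, Abcg3 and Nlrp1c-ps, under the filter, had TNF medians of 0.139, 0.0623 and 0.114 CPM and PBS medians of 0.149, 0.0425 and 0.102 CPM.

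The PBS retinas were not level over the days. For Tifab, all 31 PBS retinas of day 2 were above the highest PBS retina of day 35, and 28 of 31 were above the highest of day 14. Cmklr1 was alike, with 30 of 31 above the day 35 range and 22 of 31 above the day 14 range, and Adap2 had 28 and 21 of 31. For Arl11 these counts were 24 and 15, for Abcg3 20 and 6, for Nlrp1c-ps 16 and 7, and for Adgre4 13 and 10. The later days held other mice and the rule had used the PBS retinas of day 2, so these counts are a description. The share of all genes with such counts was not taken, so they cannot be set apart from a general difference between the days. Between day 35 and day 14, a contrast added after seeing the data, Tifab differed by −0.43 (p = 0.0124, adjusted p = 0.0851) and Arl11 by −0.89 (p = 0.0138, adjusted p = 0.0905), with day 35 lower. This contrast had no mouse block, although the 7 PBS retinas of day 14 came from 6 mice, so its p-values treat them as independent. Cmklr1 differed by −0.40 and Adap2 by −0.34. By limma and by edgeR, 0 of the 4 tested were called and 2 had an unadjusted p under 0.05, where 5.28% of 17752 genes were called lower by limma.

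**Figure D3:**
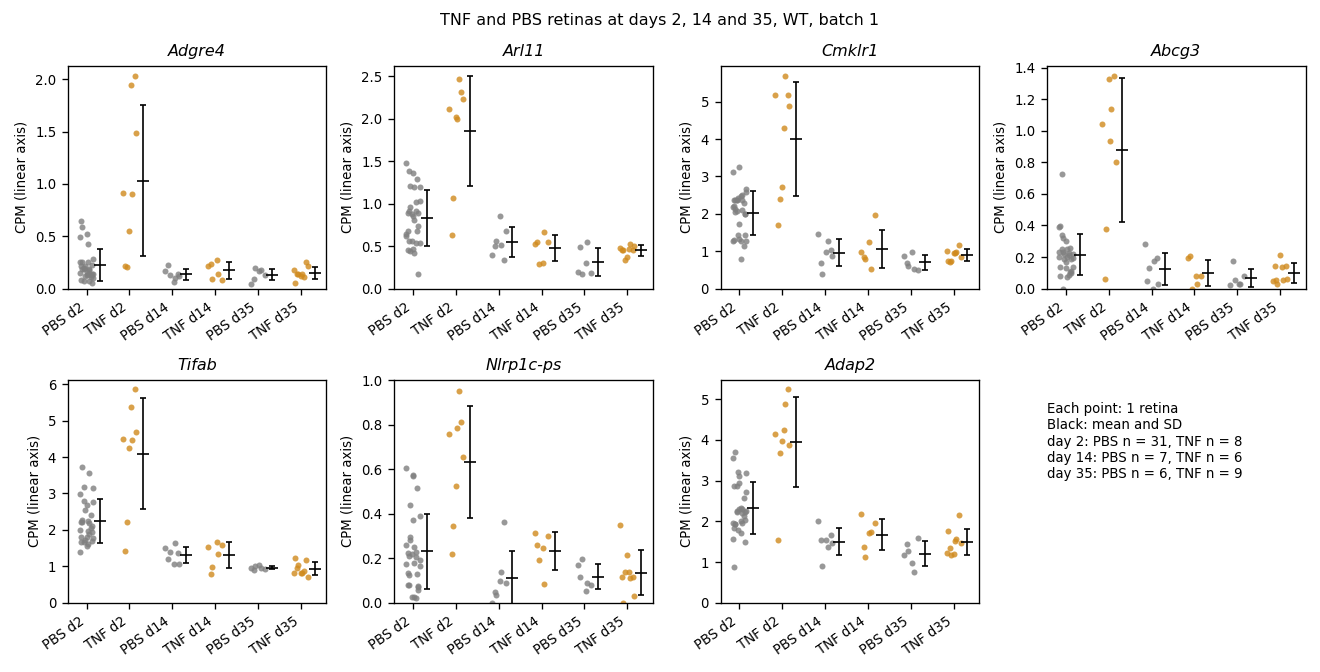
Level of each member in CPM (linear axis from 0, which hides the lower end of an SD bar of Nlrp1c-ps) in PBS and TNF retinas at days 2, 14 and 35, with 1 point per retina and the mean and SD in black. At day 2 the TNF medians lie above the PBS medians while the lowest TNF points lie within the PBS range, and at days 14 and 35 the points of both groups overlap.

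In the second batch, the targeted gene was read first. Sarm1 had 106 to 126 CPM in WT PBS retinas and 84.1 to 110 CPM in WT IL1A+TNF retinas. In Sarm1-/- retinas it had 37.3 to 53.2 CPM with PBS and 26.2 to 46.8 CPM with IL1A+TNF, so every Sarm1-/- retina was below every WT retina. Which exons the remaining reads came from cannot be read from gene counts. Nlrp1c-ps and Adap2 lie on the chromosome of Sarm1, and whether DNA near the deleted gene differed in strain of origin was not tested.

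IL1A+TNF raised all 7 genes in the WT retinas of this batch, which share no retina with the first. Adgre4 had 0.316, 0.213, 0.189, 0.357 and 0.196 CPM in the 5 PBS retinas and 0.715, 1.05 and 1.67 CPM as lowest, median and highest of 6 IL1A+TNF retinas. Cmklr1 had 2.92, 1.65, 1.40, 2.28 and 2.29 CPM with PBS and 8.38, 9.39 and 13.9 CPM with IL1A+TNF. Neither receptor overlapped between the groups. Arl11 had 1.09, 0.959, 0.592, 0.558 and 0.764 CPM with PBS and 5.23, 6.01 and 10.2 CPM with IL1A+TNF. Adap2 had 3.41, 2.40, 2.08, 3.19 and 2.15 CPM, beside 6.17, 7.79 and 8.14 CPM. These ARF genes did not overlap either.

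Tifab had 2.04, 1.86, 1.56, 1.50 and 2.17 CPM in WT PBS retinas and 4.40, 6.64 and 8.04 CPM with IL1A+TNF. Abcg3 had 0.189, 0.284, 0.0473, 0.179 and 0.157 CPM, beside 1.71, 1.95 and 2.83 CPM, and Nlrp1c-ps 0.221, 0.231, 0.166, 0.380 and 0.196 CPM, beside 0.950, 1.09 and 1.71 CPM. All IL1A+TNF retinas were above all PBS retinas for 7 of 7 members, as for 11.7% of genes, and all 7 were called, as were 13.3% of 19668 genes in the same direction. Log2 fold changes were 3.64 (SE 0.41) for Abcg3, 2.98 (SE 0.34) for Arl11, 2.29 (SE 0.33) for Nlrp1c-ps, 2.22 (SE 0.23) for Cmklr1, 2.03 (SE 0.37) for Adgre4, 1.83 (SE 0.21) for Tifab and 1.51 (SE 0.15) for Adap2. The largest adjusted p was 0.000561, for Adgre4. The order by size was that of the first batch for Abcg3, Arl11 and Nlrp1c-ps, the leading genes in both.

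Sarm1-/- retinas also rose with IL1A+TNF in all 7 genes, with 16.4% of 19668 genes called higher. Arl11 had 0.552, 0.678 and 1.23 CPM in 6 PBS retinas and 2.11, 3.72 and 7.93 CPM in 6 IL1A+TNF retinas, a log2 fold change of 2.49 (SE 0.32). Cmklr1 had 1.72, 2.15 and 3.16 CPM, beside 4.00, 6.00 and 8.26 CPM, a change of 1.41 (SE 0.22). Adap2 had 1.96, 2.46 and 2.99 CPM, beside 3.46, 4.34 and 6.14 CPM, a change of 0.87 (SE 0.15). Nlrp1c-ps had 0.0571, 0.162 and 0.218 CPM, beside 0.230, 0.554 and 0.912 CPM, a change of 1.90 (SE 0.35). In these 4 genes the groups did not overlap, as in 2.99% of all genes.

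Overlap was seen in the other 3. Abcg3 had 0.151, 0.329 and 0.587 CPM with PBS and 0.472, 0.887 and 1.34 CPM with IL1A+TNF, a change of 1.44 (SE 0.35, adjusted p = 0.00909). Adgre4 had 0.114, 0.239 and 0.789 CPM, beside 0.419, 0.636 and 1.17 CPM, a change of 1.35 (SE 0.35, adjusted p = 0.0126). Tifab had 1.68, 1.91 and 4.38 CPM, beside 3.44, 3.87 and 4.49 CPM, a change of 0.81 (SE 0.20, adjusted p = 0.0109). The highest PBS values of Adgre4 and Tifab were both from mouse 61564, and without this mouse the changes were 1.67 and 0.96. Without mouse 61924, 5 of 7 members were called, since Adgre4 (1.08, adjusted p = 0.0911) and Tifab (0.76, adjusted p = 0.0627) were lost. The share of all genes called without this mouse was not taken, so this loss cannot be set apart from a general loss of calls.

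**Figure D4:**
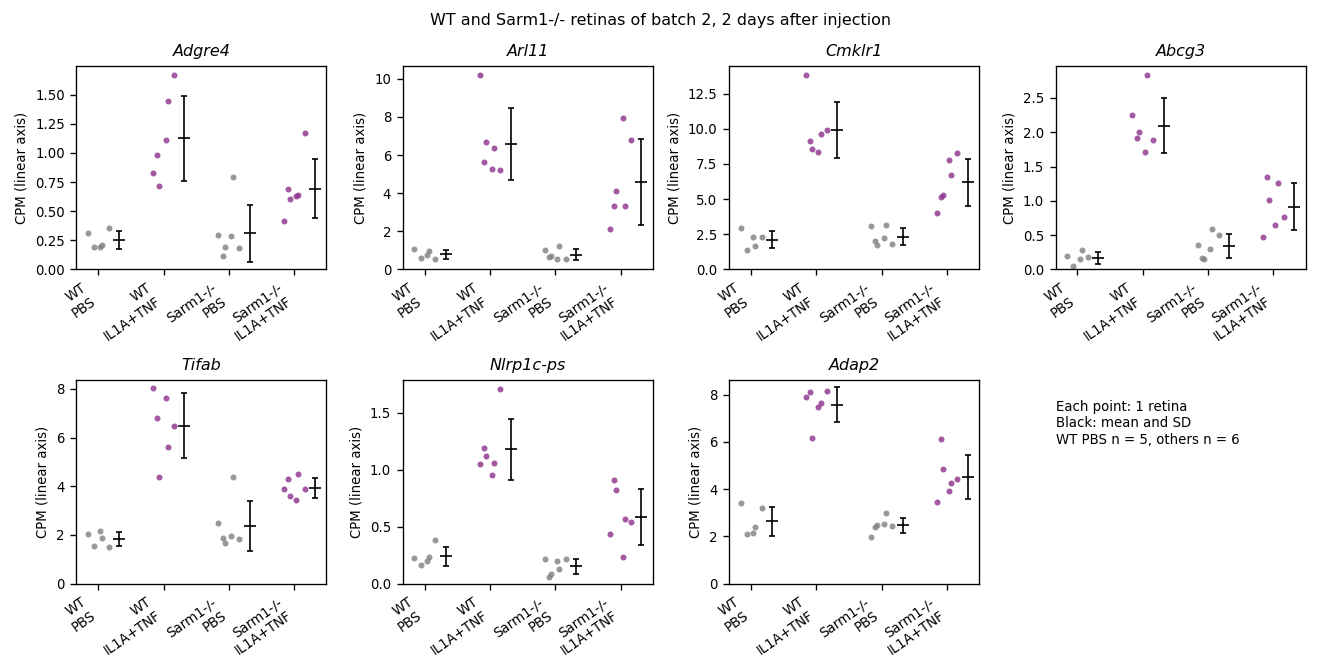
Level of each member in CPM (linear axis) in the second batch, in PBS and IL1A+TNF retinas of WT and Sarm1-/- mice, with 1 point per retina and the mean and SD in black. WT groups do not overlap in any gene, and the IL1A+TNF medians of Sarm1-/- retinas lie below those of WT retinas in all 7.

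With PBS, no member differed between Sarm1-/- and WT retinas beyond the test, where 0.0102% of genes were called. Abcg3 came nearest, 0.96 higher in Sarm1-/- (p = 0.0401, adjusted p = 1), and it was the 1 member with an unadjusted p under 0.05, among 582 genes. The other differences ran from −0.68 for Nlrp1c-ps to 0.33 for Tifab.

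The test of the difference between the genotypes in their change with IL1A+TNF called 0% of genes by limma. The point estimate was below 0, a smaller change in Sarm1-/- retinas, for each of the 7 members. The difference was −2.20 for Abcg3 (95% interval −3.30 to −1.09, p = 0.00049, adjusted p = 0.752), −1.03 for Tifab (p = 0.00228), −0.81 for Cmklr1 (p = 0.0171) and −0.63 for Adap2 (p = 0.00586). It was −0.68 for Adgre4, −0.49 for Arl11 and −0.39 for Nlrp1c-ps, with intervals that reached 0. These 3 rested on single mice in part, with −0.33 for Adgre4 without mouse 61564, −0.21 for Arl11 without mouse 61561 and −0.047 for Nlrp1c-ps without mouse 61926. Over all alternatives they ran from −0.99 to −0.33, from −0.78 to −0.21 and from −0.75 to −0.047. The adjusted p-values other than that of Abcg3 were 0.814 to 0.836. At an unadjusted p under 0.05, limma had 1125 genes, edgeR 1260 and DESeq2 1441, with 4 of 7 members each. DESeq2 called 13 genes, among them Abcg3 (−2.19, adjusted p = 0.0245), and edgeR called 0. A fit of both batches also called Abcg3 (−1.56, adjusted p = 0.025). That fit includes the day 2 TNF and PBS retinas used by the rule, and its share of all genes called is not given here. The median over the members was −0.68, beside −0.02 over all genes.

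**Figure D5:**
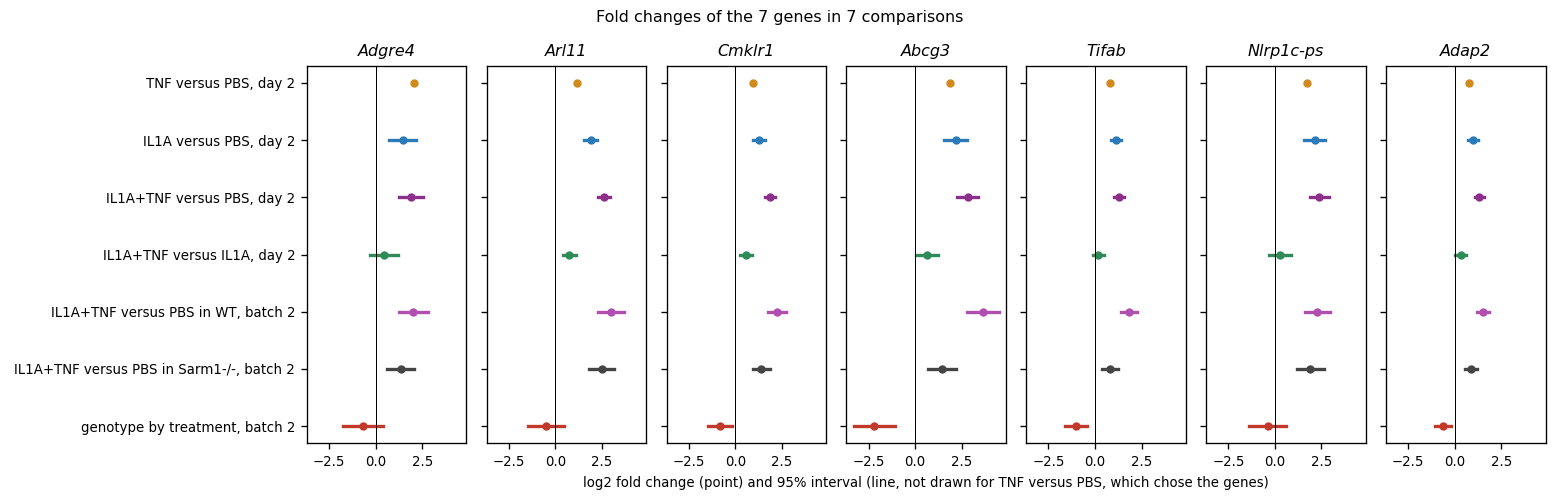
Log2 fold change of each member (point) with its 95% interval (line, left out for TNF against PBS, which chose the genes) in 7 comparisons of day 2 retinas, with no change at 0. Intervals of IL1A and of IL1A+TNF against PBS lie above 0 for all 7 genes, and the difference between the genotypes lies below 0 throughout its interval for Cmklr1, Abcg3, Tifab and Adap2.

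Levels of the whole myeloid marker list moved with the members. Summed over 14 markers found across myeloid cells, among them Ptprc, Itgam, Aif1, Tyrobp and Spi1, day 2 retinas of the first batch had medians of 103 CPM with PBS, 235 CPM with TNF, 354 CPM with IL1A and 464 CPM with IL1A+TNF. The range was 55.7 to 218 CPM with PBS and 330 to 889 CPM with IL1A+TNF. All 14 were called higher with IL1A and with IL1A+TNF, led by Ptprc (CD45, 2.73), Laptm5 (1.96) and Fcer1g (2.12), and 4 of 14 with TNF. The shares of all genes called higher were 12% with IL1A, 24.9% with IL1A+TNF and 0.614% with TNF. In the second batch, WT medians were 107 CPM with PBS and 649 CPM with IL1A+TNF, and Sarm1-/- medians 115 and 465 CPM. For the difference between the genotypes in their change with IL1A+TNF, the median over the 14 markers was −0.70, with 0 of 14 called. Over the members it was −0.68. At days 14 and 35 the PBS medians were 40.9 and 27.3 CPM and the TNF medians 51.8 and 28.8 CPM, lower than at day 2 as were the members. The part of these markers in the members' results was not tested.

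Monocyte markers summed to medians of 5.09 CPM with PBS, 34.2 CPM with TNF, 48.7 CPM with IL1A and 47.6 CPM with IL1A+TNF at day 2. Of the 7, none was called with TNF, 6 rose with IL1A and 7 with IL1A+TNF, among them F10 (3.10) and Chil3 (3.64). By day 35 their medians were 0.382 CPM with PBS and 0.387 CPM with TNF. The sum of the homeostatic microglia list (12 genes, such as P2ry12 and Tmem119) moved less in proportion than that of the monocyte list. Its median was 113 CPM with PBS and 149, 176 and 173 CPM after TNF, IL1A and IL1A+TNF. Of its 12 genes, 2 were called higher and 0 lower with TNF, beside 0.614% of all genes called higher. With IL1A, 6 were higher and 2 lower, and with IL1A+TNF 5 were higher and 4 lower. The shares of all genes called higher were then 12% and 24.9%. Of the genes tested, 6 of 9 neutrophil markers, 7 of 8 border macrophage markers and 2 of 6 dendritic cell markers rose with IL1A+TNF, beside 24.9% of all genes. With TNF alone, 0 of 9, 0 of 8 and 1 of 6 were called higher, beside 0.614% of all genes. Of 12 genes of retinal neurons and glia, none was called with TNF, 9 fell with IL1A, and 10 fell and 1 rose with IL1A+TNF. Of 5 pigment epithelium genes, 2 fell with TNF, 3 with IL1A and 4 with IL1A+TNF, and their summed medians were 59.9 CPM with PBS, 24.1 CPM with TNF, 25.2 CPM with IL1A and 19.6 CPM with IL1A+TNF. Among all 19548 genes tested, 8 were called lower with TNF, 1847 with IL1A and 4978 with IL1A+TNF. No defining marker of myeloid cells, microglia or monocytes was at 0 in every retina of a group, and the part of these lists was not tested either.

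Genes with related roles were looked at next, from a list of 29. With TNF 3 of them were called higher, beside 0.614% of all genes. With IL1A 14 rose and 1 fell, and with IL1A+TNF 19 rose and 3 fell, beside 12% and 24.9% of all genes called higher. The other adhesion receptors of the Adgre family rose with IL1A+TNF, Adgre1 (the macrophage antigen F4/80) by 2.10 and Adgre5 by 1.94. Around Cmklr1, Ccrl2, which binds chemerin without known signalling, rose by 1.64 (adjusted p = 1.28e-13). Rarres2, the gene of chemerin itself, fell by 0.46 on the log2 scale (adjusted p = 0.0108), and Gpr1, another chemerin receptor, had 0.15 (adjusted p = 0.674). So the receptor Cmklr1 and the ligand differed in direction in these retinas.

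Around Nlrp1c-ps, 6 of 8 genes of the locus and the inflammasome rose, with Il1b, the cytokine that caspase-1 matures, at 2.82, Nlrp1b at 2.49, Nlrp1a at 2.25, Casp1 at 1.53, the adaptor Pycard at 0.91 and the protease Dpp9 at 0.12. Il18 (−0.05) and Dpp8 (0.06) were not called. The intact neighbours Nlrp1a and Nlrp1b thus had changes close in size to the 2.39 of Nlrp1c-ps, with whose reads theirs may be mixed. Around Arl11 and Adap2, 3 of 7 ARF genes rose, namely Acap1 (1.65), Arf6 (0.25) and Arf5 (0.19), and Asap1 had −0.12 and fell. Around Tifab, 5 of 6 rose by small amounts, from Tifa at 0.43 to Traf6 at 0.06, and Map3k7 had 0.00. Abcg2 (0.27) and Abcg1 (0.11) rose and Abcg4 fell, at −0.30, while Abcg3 itself had 2.81.

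The likeness of other genes to the 7 was measured over the 70 retinas that the rule had not used, as the correlation with the mean of the members after each group's mean was taken out. The points share libraries and mice, and the values are a description. Of 15145 genes, the 10 most alike were Mpeg1 (r = 0.81), a pore-forming protein of macrophages, Ctss (0.75), a lysosomal protease, Ptafr (0.73), the receptor for platelet-activating factor, C3ar1 (0.73), the receptor for complement C3a, Myo1f (0.72), Cd84 (0.72), Arhgap30 (0.70), Unc93b1 (0.70), which carries Toll-like receptors to endosomes, Il10ra (0.70), the receptor for IL-10, and Tnfrsf1b (0.69), a receptor for TNF. The median gene had −0.02. All 10 were again the top 10 when libraries were scaled by relative log expression.

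Among themselves, the members were only loosely alike inside groups. The 21 pairs had correlations from −0.11 to 0.45 with a median of 0.28. Against the mean of the other 6, Cmklr1 had 0.59, Tifab 0.54, Abcg3 0.53, Adap2 0.51, Adgre4 0.42, Arl11 0.23 and Nlrp1c-ps 0.18. Mean levels of marker lists had correlations with the members of 0.76 for the 14 myeloid genes, 0.69 for monocytes, 0.59 for dendritic cells, 0.57 for border macrophages, 0.50 for neutrophils, 0.40 for T and NK cells, 0.22 for pigment epithelium, 0.21 for B cells, 0.15 for homeostatic microglia, 0.10 for erythrocytes and −0.29 for retinal genes. The single genes of the dendritic cell list had a median of 0.10, so few of them carried its mean, while those of the myeloid list had a median of 0.63.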

How the data were processed

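Whole retinas were sequenced as polyadenylated RNA (KAPA mRNA HyperPrep libraries, NovaSeq). The authors aligned reads to mm10 with STAR 2.7.9a, per their processing notes, and deposited raw counts per gene from featureCounts (Subread 2.0.1) for 109 retinas. The annotation release and the strand setting are not given in the sources used here. Symbols came from GENCODE M21 and matched 35449 of 37315 genes. Multi-mapped reads and gene copies could lower or mix the counts of Nlrp1c-ps.

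Groups, mice and batches came from the sample labels. The members and all gene lists were chosen with earlier results of these data known. Besides the 7 members, genes were named from the related-gene lists, as up to 3 genes per marker list with the smallest adjusted p for IL1A+TNF, and as the 10 most like the members. One gene that this rule names is not reported here.

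Genes were kept by edgeR's filterByExpr (count 10, total 15, proportion 0.7 above 10 samples) and scaled by trimmed mean of M values. Differences were fitted with limma voom on treatment and sex, or genotype by treatment and sex in the second batch, with the mouse as a random block. The contrast of PBS retinas between day 35 and day 14 was fitted on day and sex without a block. The consensus correlation within a mouse was 0.0515 at day 2, 0.284 at day 14, 0.0794 at day 35 and −0.0763 in the second batch. The eyes of a mouse are paired by the labels. P-values were two-sided, adjusted by Benjamini-Hochberg over all genes tested, with 0.05 as threshold. R 4.3.3, limma 3.58.1, edgeR 4.0.16, DESeq2 1.42.0 and statmod 1.5.0 were used, and the code was tested on simulated data. Precision is limited by the spread between retinas and, under about 0.3 CPM, by counting. Alternatives were edgeR, DESeq2, other scalings and filters, no sex term, other blocks, a fit of both batches and each mouse left out. No pair of retinas of a group looked like repeat deposits of 1 library, since the smallest chi-square per gene was 4.55.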

Additional observations from a re-analysis of the deposited data

Results flagged for a closer look

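Among 77 sets of a member in a group of 5 to 10 retinas, a single retina stood apart from the others of its group in 13, by Dixon's ratio of its gap to the group's range at the 95% level. Chance alone gives about 1 in 20 such sets, and retinas of a group share mice and libraries across genes. No cause was tested for any of them.

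In the first batch, mouse 60584 was the lowest TNF retina of day 2 for Adap2 (1.54 CPM, next 3.69 CPM). With IL1A+TNF, mouse 60212 was the highest for Adgre4 (3.18 CPM, next 1.47 CPM) and mouse 60215 for Adap2 (8.39 CPM, next 6.33 CPM). With IL1A, mouse 60216 was the highest for Adgre4 (1.14 CPM, next 0.619 CPM). Of the later PBS retinas, mouse 59896 had 0.174 CPM of Abcg3 at day 35 (next 0.0801 CPM) and mouse 60032 had 0.365 CPM of Nlrp1c-ps at day 14 (next 0.138 CPM), both levels of a few reads.

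In WT retinas of the second batch given IL1A+TNF, mouse 61719 was the highest for Arl11 (10.2 CPM, next 6.69 CPM) and for Cmklr1 (13.9 CPM, next 9.90 CPM). Mouse 61722 was the highest for Nlrp1c-ps (1.71 CPM, next 1.19 CPM), and mouse 61721 the lowest for Adap2 (6.17 CPM, next 7.46 CPM). Among Sarm1-/- PBS retinas, mouse 61564 was the highest for Adgre4 (0.789 CPM, next 0.299 CPM) and Tifab (4.38 CPM, next 2.51 CPM), beside 233 CPM over the 14 myeloid markers, where the group's median was 115 CPM. Among Sarm1-/- IL1A+TNF retinas, mouse 61924 was the highest for Adgre4 (1.17 CPM, next 0.689 CPM).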

How the results depend on the processing

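Over the alternatives, 1163 of 1191 member values kept their direction and side of the threshold. Of 188 counts of members called, 181 were equal or close to the reported count, where close allowed 5 called in place of 7. With genes required to average 1 CPM, 4 members were tested and 4 called after IL1A, after IL1A+TNF and in both genotypes of the second batch. In either direction, 3956 and 8913 of 15137 genes were called after IL1A and after IL1A+TNF. In the second batch, 3873 of 15232 genes were called in WT and 6047 in Sarm1-/- retinas. With the mouse as a fixed replicate block, 0 members were called for IL1A+TNF over IL1A (Arl11 0.67, Cmklr1 0.57, Nlrp1c-ps turned to −0.84), where 1 of 19476 genes was called. The fit without a replicate block (Arl11 0.74, adjusted p = 0.0036, in that comparison) changed no call. DESeq2 and the fit of both batches each called 1 member, Abcg3, for the difference between genotypes (−2.19 and −1.56). The fit of both batches includes retinas used by the rule. Leaving out mice gave 5 to 7 members called in Sarm1-/- retinas, with Adgre4 at 1.08 to 1.67 and Tifab at 0.73 to 0.96. The shares of all genes called in those fits were not taken. The PBS genotype difference could not be fitted with the mouse as a fixed block.

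The other directions that turned were of differences near 0. At day 14, leaving out mice gave −0.022 to 0.12 for Adap2, −0.31 to 0.13 for Arl11, −0.23 to 0.17 for Cmklr1 and −0.17 to 0.12 for Tifab, the fixed block gave −0.047 for Adap2 and −0.062 for Cmklr1, and DESeq2 and edgeR gave −0.023 and −0.015 for Cmklr1. At day 35, Tifab ran from −0.12 to 0.014 and had 0.0034 with the fixed block. Between genotypes with PBS, Adgre4 ran from −0.33 to 0.24 and Arl11 from −0.31 to 0.041, and the fit of both batches gave −0.060 for Adgre4 and −0.078 for Cmklr1. The cause was not tested. With the fixed block, 8 genes and no member were called at day 35. Levels under about 0.3 CPM rest on few reads, which limits Adgre4, Abcg3 and Nlrp1c-ps.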
